A study of Mus musculus with 20 samples.

Results

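Dermal fibroblasts of old, calorically restricted female mice were compared with those of young female mice on a normal diet. The comparison uses 10 of the 20 arrays of the study, 5 per group, chosen by their titles: those of old mice moved from normal diet (ND) to caloric restriction (CR), here Old CR, and those of young mice on normal diet, here Young ND. Old CR mice entered at 9 months of age, ate normal diet for the first 2 months, were then held at 30% restriction for 7 months, and were collected when 18 months old. Young ND mice were 4 weeks old when their 4 weeks of unrestricted normal diet were recorded, and their age at collection is not given in the sources used here. The other 10 old mice, all from 9 to 18 months of age, were either never restricted (Old ND) or restricted for 7 months and then back on normal diet for the last 2 (Old CR-ND). Per the labels, all mice were female, dermis freed of subdermis was dissociated with collagenase, and flow cytometry collected cells carrying Pdgfra and CD34 but not CD45, CD117, CD24, CD31 or EpCam. RNA of 10000 sorted cells was amplified over 20 cycles before hybridisation. The strain is not given in the sources used here.

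Old CR and Young ND differ in both age and diet, and in this comparison alone the part of each cannot be told apart. Old CR against Old ND, groups of the same age and different diet, is therefore given as the test of how far a restricted old level lay from an unrestricted old one. Old ND against Young ND, both on normal diet, is given beside them. The comparisons share arrays. The same Young ND arrays serve in both comparisons with Young ND, the same Old CR arrays in both with Old CR, and the same Old ND arrays in both with Old ND. Their values for a gene are given side by side and are not independent of each other.

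Fibroblasts of the dermis secrete the collagens, elastic fibre proteins and proteoglycans of the skin. A collagen chain enters the endoplasmic reticulum, is hydroxylated on proline and lysine, folds with the help of chaperones, is trimmed after secretion and is then crosslinked, and the load of secreted protein sets the demand for chaperones. Cholesterol is made by a separate set of enzymes whose genes are switched on together, through the transcription factor SREBP2, when the sterol content of the cell's membranes is low.

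Levels below are log2 values of the deposited array table, so a difference of 1 is 2-fold. Each gene is represented by its brightest probe set among those annotated to that gene alone, which gave 17097 genes with a median level of 5.88, and levels under that median are called dim. Differences are Old CR minus Young ND unless stated, with limma's standard error (SE) and n = 5 arrays per group, and a gene is said to be higher, lower or changed only where limma's p, adjusted by Benjamini-Hochberg over the 17097 genes, was under 0.05. The number of arrays limits the precision, and the median SE was 0.10. Medians of single arrays ranged from 5.27 to 5.34, and identical values were found in no pair of arrays. The numbers in the titles follow the word specimen and form 2 runs, of which Old CR had 4 arrays in the first and 1 in the second and Young ND 3 and 2. The labels do not say what these numbers mean, so treating a run as a processing batch is an assumption. With the run fitted beside the groups, 2934 of the 17097 genes changed between the runs. Values within each run are therefore given, and those of the second run rest on that 1 Old CR array.

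The sorting markers were checked first. Cd34 was bright in every array, at 11.07 to 11.44 in Old CR and 11.15 to 11.42 in Young ND, and its difference of -0.08 had a 95% interval of -0.26 to 0.11. Pdgfra, the other marker used for the sort, read near the median gene level in both groups, at 5.63 to 6.18 and 5.27 to 6.03, with an interval of -0.16 to 0.54. Of the 5 genes sorted against, Ptprc (CD45), Kit (CD117), Pecam1 (CD31) and Epcam lay below the median gene level in every array and did not pass, although Pecam1 did so without Old CR replicate 1 (-0.28). Cd24a was the exception: its arrays read 4.58, 4.96, 4.90, 4.83 and 4.89 in Old CR and 6.40, 6.77, 6.14, 6.95 and 7.40 in Young ND. The groups do not overlap, and Cd24a was lower in Old CR by 1.90 (SE 0.21, adjusted p = 3.76e-06). In a bulk sample of this kind, fewer cells of a type and less RNA per cell cannot be told apart.

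In all, 2167 of 17097 genes (12.7%) changed, 1216 of them (7.11%) higher in Old CR and 951 (5.56%) lower. These shares, 7.11% and 5.56%, are the reference for every count of list members in Old CR against Young ND below. Counts in the other comparisons are to be read beside the shares of those comparisons. The balance of directions depended on the scaling, since centring every array on its own median gave 990 higher and 1166 lower. Among them 260 genes (1.52%) changed by at least 2-fold, 123 higher and 137 lower. The 5 Old CR values lay above all 5 Young ND values in 960 genes (5.62%) and below them in 816 (4.77%). Over the 10 arrays, the first principal component held 48.2% of the variance and placed the Old CR arrays between 12.08 and 25.28 and the Young ND arrays between -27.68 and -10.25, and the second (18.8%) separated the 2 runs. Taken alone, the first run gave 1674 changed genes and the second 576. For Old ND against Young ND the count was 1870 (10.9%), with 761 (4.45%) higher and 1109 (6.49%) lower in Old ND. Old CR against Old ND gave 409 genes (2.39%), 269 (1.57%) higher and 140 (0.819%) lower in Old CR, a count that fell to 267, 202, 206 and 201 without Old CR replicates 1, 2, 3 and 4 and to 238 and 258 without Old ND replicates 1 and 3. Blocking on the run gave 2601 genes for Old CR against Young ND and 711 for Old CR against Old ND.

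A large fall was that of Bcat1, the cytosolic aminotransferase that starts the breakdown of leucine, isoleucine and valine. Its 5 Young ND arrays read 7.91, 8.36, 7.67, 8.15 and 8.65, and its Old CR arrays 4.21, 4.01, 4.22, 4.06 and 4.14. Every Old CR array thus lay under the lower quartile of gene levels (4.54), and the difference was -4.02 (SE 0.13, adjusted p = 2.28e-14), given without a fold because no detection calls were used here to tell such levels from background. Over the mean of its 3 probe sets it was -2.38. Creb3l3, a membrane-bound transcription factor of lipid metabolism, read 8.52 to 8.83 in Young ND and 6.01 to 6.41 in Old CR, a fall of 2.52 (SE 0.12). The long noncoding RNA Miat was as even, at 9.15 to 9.44 and 6.10 to 6.95, and was lower by 2.78 (SE 0.20). Aldh1l2, a mitochondrial enzyme of folate metabolism, was lower by 2.45 (SE 0.20), and its Old CR mean of 4.02 was again dim. None of these 4 genes changed between Old CR and Old ND, where the differences lay between -0.23 for Miat and 0.09 for Aldh1l2.

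Some falls were larger in some young mice than in others. The carbonyl reductase Cbr2 read 5.45, 8.67, 7.04, 8.99 and 10.07 in Young ND and 4.67 to 4.91 in Old CR. The adhesion protein Flrt1 read 6.94, 9.86, 9.41, 9.07 and 9.50 against 5.15 to 5.66, and the protein-crosslinking transglutaminase Tgm2 read 8.14, 10.05, 9.31, 10.57 and 10.97 against 6.53 to 7.20. In each of these 3 genes, Young ND replicate 1 was the lowest young array and still lay above every Old CR array. The differences were -3.25 (SE 0.52) for Cbr2, -3.52 (SE 0.36) for Flrt1 and -3.03 (SE 0.43) for Tgm2. In the first and second run alone they were -2.29 and -4.62 for Cbr2, -3.26 and -4.01 for Flrt1, and -2.49 and -3.57 for Tgm2. Oxtr, the oxytocin receptor, had the same young array lowest (7.85 against 9.42 to 9.96 in the other 4) and was lower by 2.46 (SE 0.38), a receptor known for its part in labour and milk ejection. Tcim, a small regulator of transcription, was lower by 3.0 (SE 0.36), and over the mean of its probe sets by 1.79. Obox2, an oocyte homeobox gene with near-identical copies that the array may not separate, read lower by 2.52 (SE 0.23), and by 0.91 over the mean of its probe sets.

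Among the rises, Ctla2a, a cysteine protease inhibitor with a near-identical neighbour (Ctla2b), had the largest difference and is uncertain for that reason. Its Old CR arrays read 9.84, 9.71, 10.74, 10.88 and 9.00 and its Young ND arrays 5.71, 5.92, 6.48, 6.06 and 6.16, so the groups lie far apart. The difference was 3.97 (SE 0.30, 15.6-fold, adjusted p = 3.53e-08), against 1.08 for Old ND minus Young ND, and Old CR lay above Old ND by 2.89 (adjusted p = 4.57e-05). Lgr5, a receptor that strengthens Wnt signals and marks stem cells in several epithelia, read 8.79, 9.58, 8.78, 8.48 and 8.21 in Old CR and 6.11, 5.07, 5.68, 5.11 and 5.50 in Young ND. It was higher by 3.27 (SE 0.25, 9.67-fold, adjusted p = 3.53e-08), and by 2.04 over the mean of its 2 probe sets. Old ND stood between them at 6.87 to 7.73, overlapping neither group, and Old CR exceeded Old ND by 1.64 (adjusted p = 0.00192).

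Tmem176a and Tmem176b, neighbouring genes for related membrane proteins, changed together. Tmem176a read 8.82 to 9.27 in Old CR and 5.59 to 6.04 in Young ND (3.21, SE 0.15), and Tmem176b read 10.60 to 10.88 and 7.57 to 8.11 (2.72, SE 0.12). They did not change between Old CR and Old ND (-0.29 and -0.08), with adjusted p of 0.406 and 0.850. Galnt15, which starts sugar chains on secreted proteins, was higher by 3.06 (SE 0.33), and by 1.80 over the mean of its probe sets. Its Young ND arrays spread from 5.58 to 6.97, all below the lowest Old CR value of 9.12. Penk, the precursor of enkephalin peptides, was higher by 1.93 (SE 0.18), and Adcyap1r1, the receptor for the neuropeptide PACAP, by 2.19 (SE 0.24). Slc43a3, a purine transporter, was higher by 1.97 (SE 0.23).

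**Figure D1:**
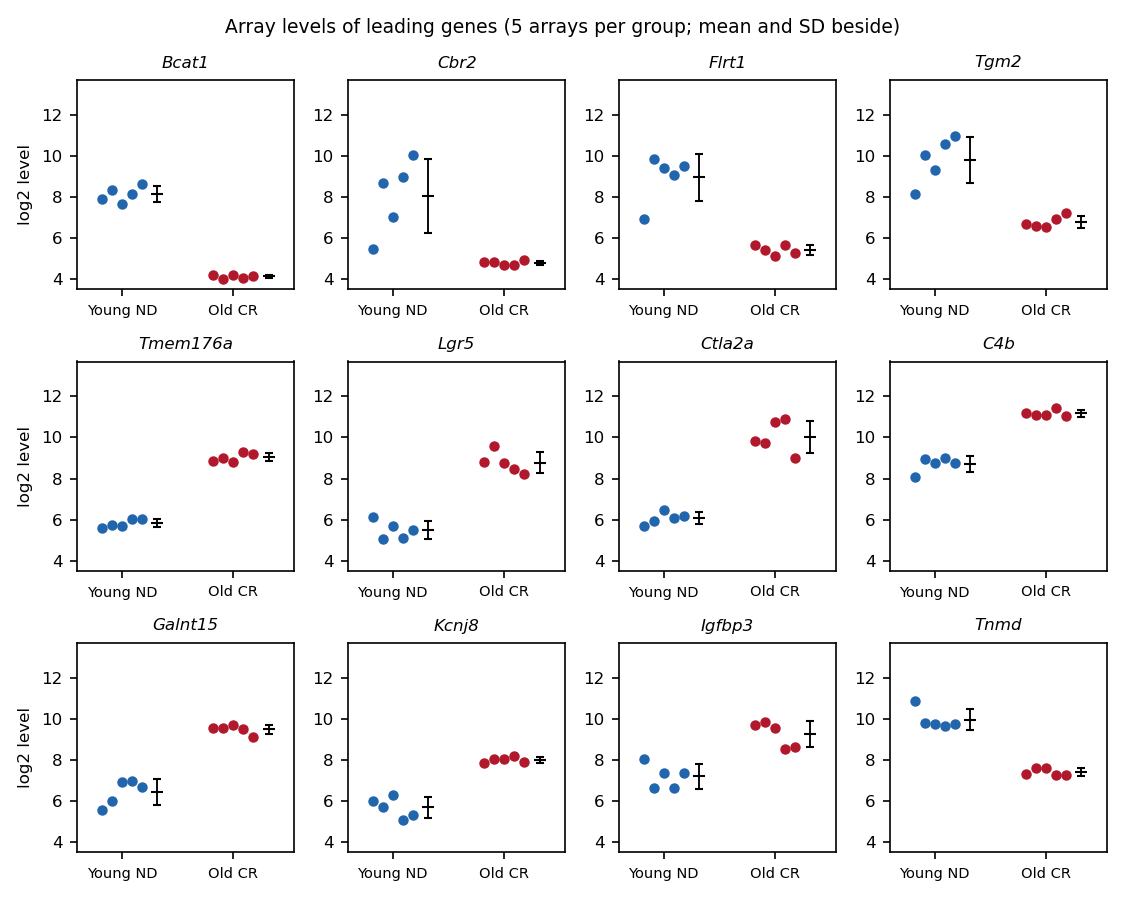
Log2 array levels (vertical axes) of 12 genes with large differences, with 1 point per array and the mean and SD beside each group of 5 Young ND (blue) and 5 Old CR (red) arrays. The genes are shown for their large differences, and the groups do not overlap in any panel. Young ND replicate 1, the leftmost blue point, is the lowest young array for Cbr2, Flrt1 and Tgm2.

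About as many collagens were lower in Old CR as did not pass, and 0 were higher. Of 11 fibrillar collagens measured, 5 were lower and 0 higher, and of 20 other collagens 10 were lower and 0 higher, where 5.56% of all genes were lower. The median difference was -0.35 for the fibrillar and -0.69 for the other collagens, against 0.00 over all genes, or -0.28 and -0.81 in the first run alone and -0.43 and -0.42 in the second. Col1a1, a chain of the main fibril of skin, read 12.84, 12.90, 12.84, 12.85 and 12.72 in Old CR and 13.36, 13.37, 13.31, 13.31 and 13.32 in Young ND. The difference of -0.50 (SE 0.08, adjusted p = 0.000156) is small, the groups do not overlap, and the young values lie near the top of the deposited scale (13.46). Col3a1, the partner fibril of young skin, was lower by 0.35 (SE 0.07), and by 1.77 over the mean of its 2 probe sets.

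Type V collagen, which starts fibrils and sets their width, changed most among the fibrillar chains. Col5a3 read 7.18 to 7.81 in Old CR and 9.36 to 10.16 in Young ND and was lower by 2.30 (SE 0.20, 4.94-fold, adjusted p = 1.34e-07). Col5a2 was lower by 1.18 (SE 0.10) and Col5a1 by 1.03 (SE 0.12). Col14a1, which binds to the surface of fibrils, read 5.67, 6.42, 5.65, 6.14 and 6.01 in Old CR and 9.34, 8.56, 8.44, 7.58 and 7.79 in Young ND. The young arrays spread over more than the width of the Old CR group, without overlap, and the difference was -2.36 (SE 0.39), or -2.81 and -1.68 in the first and second run alone. Col15a1, a collagen near basement membranes, was lower by 1.27 (SE 0.14), Col16a1 by 0.92 (SE 0.12), and Col4a5, a basement membrane chain that was dim in Old CR (3.94), by 1.53 (SE 0.19), or 0.82 over the mean of its probe sets and 0.92 in the second run alone.

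In Old CR against Old ND some of these collagens passed the threshold and others did not, and differences between collagens were not tested. Type V chains showed falls from Young ND to Old ND as well (-1.72 for Col5a3, -1.06 for Col5a2 and -0.98 for Col5a1), and Old CR against Old ND did not pass for any of the 3 (-0.58, -0.13 and -0.05). Col6a3, a chain of the beaded filaments around cells, read 8.92, 8.86, 8.97, 8.38 and 8.73 in Old CR, 9.87 to 10.73 in Young ND and 9.15 to 10.76 in Old ND. Old CR lay wholly below both other groups, which overlap: Col6a3 was lower than in Young ND by 1.42 (SE 0.25, adjusted p = 0.000583) and lower than in Old ND by 1.12 (adjusted p = 0.0212), while Old ND minus Young ND was -0.30 (adjusted p = 0.544). Col15a1 fell by 0.57 from Young ND to Old ND (adjusted p = 0.00804), and Old CR lay below Old ND by 0.69 (adjusted p = 0.01). Chosen after their values were seen, the basement membrane chain Col4a1 was lower than in Young ND by 0.96 and than in Old ND by 0.69 (adjusted p = 0.0275), and Col4a4 was higher than in Old ND by 0.40. Col1a2, the partner chain of Col1a1 and also chosen in that way, gave a difference of 0.05 with a 95% interval of -0.32 to 0.42.

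The enzymes that process collagen showed the highest share of lower genes among the lists, 14 of 22 (63.6%), with 0 higher and a median of -0.48 (-0.51 and -0.50 within the 2 runs). P4ha2, a subunit of the enzyme that hydroxylates prolines, read 8.18 to 8.56 in Old CR and 9.63 to 10.11 in Young ND and was lower by 1.46 (SE 0.14, adjusted p = 7.97e-07). Loxl2, which crosslinks collagen, was lower by 1.16 (SE 0.12), P3h4 of the lysine hydroxylation complex by 0.80 (SE 0.08), and the collagen chaperone Serpinh1 by 0.72 (SE 0.08). In none of these 4 genes do the groups overlap, where Old CR lay wholly below Young ND in 4.77% of all genes. They were named for the smallest adjusted p of this comparison within the list, which favours separate groups. The same list had 17 of 22 genes lower in Old ND against Young ND, where 6.49% of all genes were lower, with a median of -0.53. Old CR against Old ND changed 0 of the 22, near the 2.39% of all genes that changed there, and the median difference was 0.04.

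**Figure D2:**
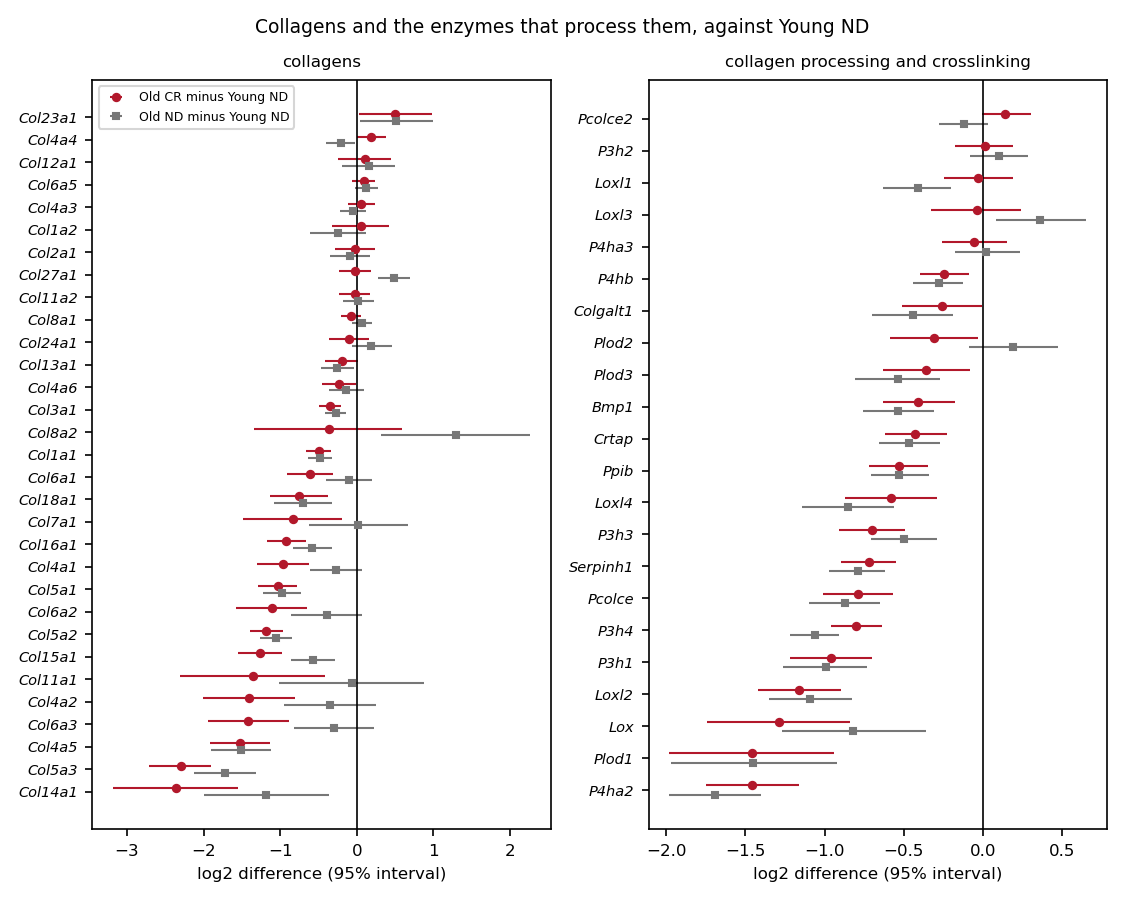
Log2 differences with 95% intervals (horizontal axes) from Young ND for 31 collagens (left) and 22 collagen processing genes (right), Old CR in red circles and Old ND in grey squares. For Col5a3, P4ha2 and Loxl2 both markers lie well below 0, while for Col6a3 the Old ND interval includes 0 and the Old CR interval does not.

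Other matrix genes moved less evenly. Of 12 small leucine-rich proteoglycans, which coat collagen fibrils, 2 were lower and 0 higher, with a median of -0.39. They were Ogn (-0.88, SE 0.17) and Kera (-1.15, SE 0.27), whose Old CR mean of 3.87 was dim. Of 15 elastic fibre genes 4 were lower and 2 higher, with a median of 0.02. Mfap4, a microfibril protein, was lower by 0.77 (SE 0.17) and elastin, Eln, by 0.53 (SE 0.14). Mfap4 stood at 11.69 in Young ND and 11.68 in Old ND and at 10.92 in Old CR, which was lower than Old ND by 0.76 (adjusted p = 0.0199). Of 16 adhesive glycoproteins 3 were lower and 0 higher, and Ccn5, a matricellular growth regulator, was lower than in Young ND by 1.05 (SE 0.16) and than in Old ND by 0.96 (adjusted p = 0.00393).

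Of 18 matrix proteases and inhibitors 3 were higher and 5 lower (16.7% and 27.8%), with a median of -0.23. Plat, the tissue plasminogen activator, read 8.47 to 9.05 in Old CR and 6.85 to 7.19 in Young ND and was higher by 1.81 (SE 0.20, 3.51-fold, adjusted p = 4.12e-06). The matrix metalloproteinase Mmp11 was higher by 1.52 (SE 0.20), and the membrane-bound Mmp16 lower by 1.31 (SE 0.25). Tnmd, a membrane protein of tendon and dense connective tissue, was among the largest falls: its Old CR arrays read 7.33, 7.63, 7.63, 7.25 and 7.27 and its Young ND arrays 10.86, 9.78, 9.77, 9.68 and 9.77. It was lower than in Young ND by 2.55 (SE 0.49, adjusted p = 0.00126) and than in Old ND by 1.95 (adjusted p = 0.0373), and Old ND spread from 8.13 to 10.93.

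Cholesterol synthesis moved the other way. Of its 17 measured enzymes 9 were higher in Old CR and 0 lower (52.9%, where 7.11% of all genes were higher), and their median difference was 0.47, or 0.54 in the first run alone and 0.38 in the second. In Old ND against Young ND 0 of the 17 were higher and 1 lower, beside 4.45% and 6.49% of all genes, with a median of -0.02. In Old CR against Old ND 7 were higher and 0 lower, beside 1.57% and 0.819% of all genes, with a median of 0.37.

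Because SREBP2 acts at promoters together with the factor NF-Y, which binds a CCAAT box, the promoters of the sterol genes that passed were read. The CCAAT box (letters CCAAT, both strands) was present in the 250 bases before the start of each of the 7 called enzymes, of 9, that have an entry in the RefSeq promoter table, and in 14 of the 14 enzymes of the whole list with an entry. It stood in 37.5% of all 27025 genes of that table. Such a match describes the letters and does not show that a factor was bound. The binding site of SREBP2 itself was not searched for. The 150 bases before the start are shown for 3 enzymes that passed, from RefSeq on GRCm38.p6 and read 5′ to 3′ along the gene, with the box in capitals (ATTGG where it lies on the other strand). They lie at chr5:4104698-4104847 on the minus strand for Cyp51, chrX:72918371-72918520 on the plus strand for Nsdhl and chr13:8885456-8885605 on the plus strand for Idi1, which was chosen after its values were seen. The box begins 29 bases before the start in Cyp51 and 20 and 109 bases before it in Nsdhl.
Cyp51: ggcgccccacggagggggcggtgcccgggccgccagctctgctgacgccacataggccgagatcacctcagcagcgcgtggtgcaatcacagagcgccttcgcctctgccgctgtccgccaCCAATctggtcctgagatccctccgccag
Nsdhl: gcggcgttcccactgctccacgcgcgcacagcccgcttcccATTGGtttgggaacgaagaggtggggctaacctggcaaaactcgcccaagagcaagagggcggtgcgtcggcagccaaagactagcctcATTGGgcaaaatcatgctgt
Idi1: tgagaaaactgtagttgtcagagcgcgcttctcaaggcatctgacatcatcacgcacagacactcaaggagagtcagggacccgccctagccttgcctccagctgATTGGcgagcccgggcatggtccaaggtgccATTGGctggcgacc

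Fdps, which makes farnesyl diphosphate, read 7.12, 6.75, 6.75, 7.05 and 6.28 in Old CR and 5.63, 6.05, 5.58, 5.65 and 5.93 in Young ND. The groups do not overlap, the lowest Old CR array being the one of the second run, and the difference was 1.02 (SE 0.15, 2.03-fold, adjusted p = 0.000118), or 1.16 and 0.49 within the 2 runs. Old ND averaged 5.71 and Old CR-ND 5.77, near Young ND at 5.77, and Old CR exceeded them by 1.08 (adjusted p = 0.00138) and 1.02 (adjusted p = 0.00617). Fdft1, which commits farnesyl units to sterols, was higher by 0.77 (SE 0.11), and Nsdhl, which removes methyl groups from the sterol ring, by 0.78 (SE 0.12), with 0.38 in the second run alone. Cyp51, the lanosterol demethylase, read 8.92 to 9.29 in Old CR and 8.05 to 8.43 in Young ND and was higher by 0.79 (SE 0.15), or 0.52 over the mean of its probe sets. For Cyp51, Old CR against Old ND did not pass (0.37, adjusted p = 0.231). Idi1, the isomerase before Fdps in the pathway, was higher than in Young ND by 0.84 (SE 0.18, adjusted p = 0.00262) and than in Old ND by 0.75 (adjusted p = 0.0270).

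Genes that sense or carry sterols gave 3 higher and 1 lower of 11, with a median of 0.24. Stard4, which moves cholesterol between membranes, read 5.62 to 6.27 in Old CR and 4.77 to 4.84 in Young ND and was higher by 1.15 (SE 0.17), or 0.65 over the mean of its probe sets. Insig1, which holds SREBP in the endoplasmic reticulum and is itself an SREBP target, was higher by 0.72 (SE 0.15). Both were also higher than in Old ND, by 0.98 (adjusted p = 0.00466) and 0.65 (adjusted p = 0.0262). Npc1, which exports cholesterol from lysosomes, was lower by 0.44 (SE 0.08) and by 0.70 in the second run alone, and the lipoprotein receptor Scarb1 was higher by 0.52 (SE 0.10) at a dim level of 4.93, with 0.30 in the second run alone. Of 11 fatty acid synthesis genes 3 were higher and 0 lower, with a median of 0.30, and Acss2, which makes acetyl-CoA from acetate, was higher by 0.69 (SE 0.13), with 0.26 in the second run alone. Of 10 fatty acid oxidation genes 1 was higher and 0 lower, and of 14 adipogenic genes 0 were higher and 1 lower, Zfp423, a factor of fat cell precursors (-0.66, SE 0.15). Pparg, the regulator of fat cell differentiation, gave -0.24 (adjusted p = 0.0841), with a 95% interval of -0.42 to -0.06, and passed under median centring of the arrays (-0.27, adjusted p = 0.0357) and with array weights (-0.27, adjusted p = 0.0224).

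**Figure D3:**
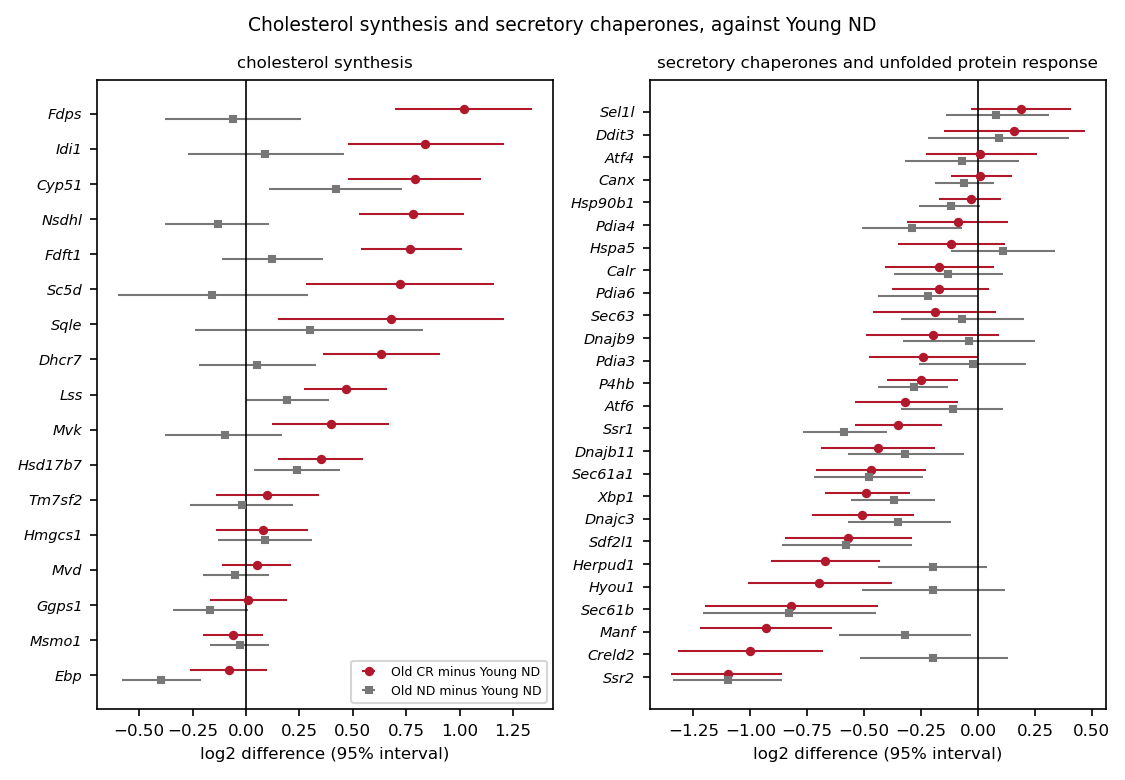
Log2 differences with 95% intervals (horizontal axes) from Young ND for 17 cholesterol synthesis genes (left) and 26 secretory chaperone and unfolded protein response genes (right), Old CR in red circles and Old ND in grey squares. For Fdps and Nsdhl the Old CR interval lies above 0 and the Old ND interval includes it, and for Ssr2 both lie at -1.10.

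The secretory pathway genes that passed were lower. Of 26 secretory chaperone and unfolded protein response genes, 13 were lower and 0 higher (50.0%), with a median of -0.28 and -0.32 and -0.26 within the 2 runs. Ssr2, a subunit of the complex at the translocation channel, read 8.05 to 8.36 in Old CR and 9.05 to 9.42 in Young ND and was lower by 1.10 (SE 0.12, adjusted p = 2.58e-06). Old ND was lower than Young ND by the same 1.10. Of the 26 genes 8 were lower and 0 higher in Old ND against Young ND, where 6.49% of all genes were lower, with a median of -0.2. In Old CR against Old ND 3 were lower and 0 higher, beside 0.819% of all genes lower, with a median of -0.02. These 3 were Manf, a secreted protein of the stressed endoplasmic reticulum, Creld2, which binds misfolding matrix proteins, and Herpud1, which serves protein disposal there. Whether they differ from Ssr2 was not tested. Creld2 read 8.90, 8.55, 8.43, 8.61 and 9.24 in Old CR, 9.55 to 10.06 in Young ND and 9.24 to 9.88 in Old ND. It was lower than in Young ND by 1.00 (SE 0.15, adjusted p = 0.000155) and than in Old ND by 0.80 (adjusted p = 0.00883). Manf was lower than in Young ND by 0.93 (SE 0.14) and than in Old ND by 0.61 (adjusted p = 0.0215), and Herpud1 by 0.67 (SE 0.11) and 0.47 (adjusted p = 0.0315). In the second run alone Creld2 and Manf both differed from Young ND by -0.56. Chosen after their values were seen, the abundant chaperones Hspa5 (-0.12) and Hsp90b1 (-0.03) did not pass, and their 95% intervals were -0.35 to 0.12 and -0.17 to 0.10.

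The ER stress response element, to which the factor ATF6 binds with NF-Y (letters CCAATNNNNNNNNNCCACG, both strands, containing the CCAAT box), was found in 0.13% of all promoters of the table (35 of 27025 genes). Such elements stood in 7 of the 21 genes of the list that have an entry, Hspa5 and Hsp90b1 among them, and in 2 of the 9 that were lower and have one, Creld2 and Dnajc3. Their promoters show the element in capitals. They lie at chr15:88819496-88819645 for Creld2 and chr14:118937782-118937931 for Dnajc3, both on the plus strand of GRCm38.p6. Dnajc3, a cochaperone chosen for its element after its values were seen, was lower by 0.51 (SE 0.11, adjusted p = 0.00336), and in the second run alone by 0.26.
Creld2: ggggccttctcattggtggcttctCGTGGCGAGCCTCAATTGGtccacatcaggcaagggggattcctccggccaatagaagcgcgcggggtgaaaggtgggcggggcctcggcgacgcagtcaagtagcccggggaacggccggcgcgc
Dnajc3: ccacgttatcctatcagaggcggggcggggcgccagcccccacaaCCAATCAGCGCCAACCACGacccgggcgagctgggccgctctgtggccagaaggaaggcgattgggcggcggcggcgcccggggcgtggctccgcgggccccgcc

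Growth factor genes changed in both directions. Of 16 genes of the insulin-like growth factor (IGF) axis 5 were higher and 2 lower (31.2% and 12.5%), with a median of 0.08. Igf2, the fetal growth factor, read 10.33, 10.26, 9.79, 9.80 and 9.58 in Old CR and 8.64, 8.30, 8.24, 7.66 and 7.70 in Young ND. It was higher by 1.84 (SE 0.17, 3.59-fold, adjusted p = 5.92e-07), and it stood as high in Old ND (9.96) as in Old CR (9.95). Igfbp3, which carries these factors in the circulation, read 9.72, 9.86, 9.57, 8.55 and 8.65 in Old CR and 6.62 to 8.03 in Young ND and was higher by 2.07 (SE 0.45, adjusted p = 0.00343). It was higher than in Old ND by 2.38 (adjusted p = 0.00758) and than in Old CR-ND by 2.50 (adjusted p = 0.0142). Igf1, the postnatal growth factor, differed by -0.56 (SE 0.14), or -0.33 and -1.0 in the first and second run alone. The insulin receptor, Insr, was higher by 0.74 (SE 0.17).

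Of 13 genes of the imprinted growth network 2 were higher and 4 lower (15.4% and 30.8%). Rian and Mirg, noncoding RNAs of the imprinted Dlk1-Dio3 locus, were lower. Rian read 9.66, 10.24, 9.84, 9.70 and 9.39 in Old CR, 10.63 to 10.87 in Young ND and 7.88 to 8.51 in Old ND, so the 3 groups do not overlap. It was lower than in Young ND by 1.00 (SE 0.13, adjusted p = 2.53e-05) and higher than in Old ND by 1.5 (adjusted p = 4.76e-06). Mirg was lower by 2.62 (SE 0.31), and its Old CR level of 6.62 against 5.96 in Old ND did not pass (adjusted p = 0.331). Cdkn1c, an imprinted inhibitor of cell division, was higher by 1.05 (SE 0.12).

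Of 18 complement genes 5 were higher and 1 lower (27.8% and 5.6%), with a median of 0.05. C4b, which with its near-identical copy C4a supplies the fourth complement component and may not be separable from it on the array, read 11.21, 11.11, 11.08, 11.44 and 11.05 in Old CR and 8.06, 8.96, 8.74, 9.01 and 8.78 in Young ND. It was higher by 2.47 (SE 0.26, 5.53-fold, adjusted p = 2.44e-06). C2, the protease that joins it, was higher by 1.78 (SE 0.18), Cfb of the alternative pathway by 1.05 (SE 0.14) and C1s1, the protease of the first component, by 0.96 (SE 0.08). The groups do not overlap in any of the 4, where Old CR lay wholly above Young ND in 5.62% of all genes. These 4 were named for the smallest adjusted p of this comparison within the list, which favours separate groups. Old CR against Old ND passed in none of them.

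Of 25 type I interferon response genes 8 were higher and 0 lower (32%), with a median of 0.25, or 0.17 and 0.36 within the 2 runs. Against the same Young ND arrays, Old ND gave 4 higher and 0 lower with a median of 0.15, where 4.45% of all genes were higher. Old CR-ND gave 10 higher and 0 lower with a median of 0.37, where 7.04% of all genes changed in either direction. In Old CR against Old ND 3 were higher and 0 lower, beside 1.57% of all genes higher, with a median of 0.21. Ifit2, which binds viral RNA, read 5.18, 5.37, 5.51, 5.95 and 6.27 in Old CR and 3.86 to 4.44 in Young ND and was higher by 1.56 (SE 0.21, adjusted p = 2.85e-05). Old ND lay between at 4.44 to 5.00, and Old CR exceeded it by 0.94 (adjusted p = 0.0178). Irf7, a transcription factor of the response, was higher than in Young ND by 0.68 (SE 0.11) and than in Old ND by 0.49 (adjusted p = 0.0255). Cmpk2, a mitochondrial nucleotide kinase, was higher by 0.88 (SE 0.11) and Trim30a by 1.02 (SE 0.18). Tgtp1, an interferon-induced GTPase with a near-identical copy (Tgtp2), was higher by 1.90 (SE 0.30). In antigen presentation and the response to interferon gamma 4 of 23 genes were higher and 0 lower, among them the GTPases Iigp1 (0.79, SE 0.16) and Igtp (0.71, SE 0.18) and the transcription factor Irf1 (0.45, SE 0.10).

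Of 30 chemokines and cytokines 3 were higher and 4 lower. Cxcl12, which retains blood cells in their niches, read 8.63 to 9.35 in Old CR and 6.58 to 7.68 in Young ND and was higher by 1.75 (SE 0.25), or 0.86 over the mean of its probe sets. Cx3cl1, a membrane-bound chemokine, was higher than in Young ND by 0.89 (SE 0.14) but lower than in Old ND by 0.78 (adjusted p = 0.00489). Lif, a cytokine of the interleukin-6 family, was lower by 1.13 (SE 0.27). Vcam1, to which white cells adhere, read 6.15, 6.49, 6.54, 5.79 and 7.08 in Old CR and 7.12 to 8.62 in Young ND. The highest Old CR array lay just under the lowest young one, and Vcam1 was lower by 1.71 (SE 0.28, adjusted p = 0.000326) and lower than in Old ND by 1.28 (adjusted p = 0.0199). In the second run alone Vcam1 differed from Young ND by -1.12.

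Among 28 Wnt pathway regulators 5 were higher and 2 lower (17.9% and 7.1%, beside 7.11% and 5.56% of all genes). Besides Lgr5, the secreted antagonist Sfrp1 read 8.17 to 9.17 in Old CR and 6.85 to 7.14 in Young ND and was higher by 1.54 (SE 0.25), and by 1.01 against Old ND (adjusted p = 0.0373). Dkk2, another secreted antagonist, read 5.62, 5.86, 6.12, 6.13 and 6.25 in Old CR and 6.66 to 8.03 in Young ND. It was lower by 1.22 (SE 0.29, adjusted p = 0.00735), or -1.58 and -0.52 in the first and second run alone, and lower than in Old ND by 1.89 (adjusted p = 0.00214). Nkd2, an intracellular Wnt inhibitor, was higher by 0.87 (SE 0.19) and Notum, which inactivates Wnt ligands, lower by 0.38 (SE 0.08). Of 14 Hedgehog genes 3 were higher (21.4%) and 0 lower, with the coreceptors Gas1 and Cdon higher by 0.90 (SE 0.13) and 0.54 (SE 0.12). Of 22 BMP genes 2 were higher and 1 lower (9.1% and 4.5%, near the shares over all genes), with the BMP antagonist Grem1 higher by 0.98 (SE 0.20), or 0.69 and 1.40 within the 2 runs, and Bambi, a decoy receptor, by 0.84 (SE 0.17). Of 19 TGF-beta genes 3 were higher and 1 lower (15.8% and 5.3%). The coreceptor Tgfbr3 was higher by 0.63 (SE 0.13), the activin antagonist Fst by 0.74 (SE 0.17) and the signal carrier Smad3 by 0.42 (SE 0.09).

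Of 19 dermal fibroblast subset and sorting markers 1 was higher and 3 lower, with a median of -0.08, or -0.04 and 0.02 within the 2 runs. Dpp4, a surface protease of upper dermal fibroblasts, was higher than in Young ND by 0.78 (SE 0.17) and than in Old ND by 0.92 (adjusted p = 0.00694), and Thy1, a general fibroblast marker, was lower by 0.37 (SE 0.09). Crabp1, which binds retinoic acid, was lower by 1.51 (SE 0.48, adjusted p = 0.0442) and the transcription factor Twist2 by 0.43 (SE 0.14, adjusted p = 0.0497). The call of Crabp1 was lost without Old CR replicates 1, 2 and 4 and Young ND replicates 1, 2, 4 and 5 (-1.63 to -1.19), and that of Twist2 without Old CR replicates 1 to 4 and Young ND replicates 1, 2, 4 and 5 (-0.47 to -0.34) and with the run blocked (-0.42, adjusted p = 0.0524).

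Metabolic genes other than those of sterols were read in separate lists, beside 7.11% higher and 5.56% lower over all genes. Of 15 genes of branched-chain amino acid breakdown 4 were higher and Bcat1 alone was lower, with Aldh6a1 of the valine branch higher by 1.14 (SE 0.16) and Bckdhb and Mccc2, subunits of enzymes further down the pathway, by 0.59 (SE 0.13) and 0.56 (SE 0.13). Of 18 glycolysis genes 4 were higher and 1 lower. Ldhb, the lactate dehydrogenase subunit of oxidative tissues, read 7.85 to 8.16 in Old CR and 5.94 to 6.97 in Young ND and was higher by 1.66 (SE 0.13, 3.17-fold, adjusted p = 6.44e-08), while hexokinase Hk2 was lower by 1.02 (SE 0.23). Tpi1, a triosephosphate isomerase, was higher by 0.55 (SE 0.09) and Pfkfb3, which makes an activator of glycolysis, by 0.57 (SE 0.14). Of 38 oxidative phosphorylation genes 1 was higher and 2 lower, with a median of -0.07. Of 39 cytosolic ribosomal protein genes 10 were higher and 0 lower, and all 39 differences lay above 0 with a median of 0.19, or 0.15 with each array centred on its median. Old ND against Young ND gave 6 higher, where 4.45% of all genes were higher, and 0 lower, with a median of 0.21. Rps4x was higher than in Young ND by 0.29 (SE 0.07) in Old CR.

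Of 28 antioxidant and drug-metabolizing enzymes 5 were higher and 4 lower, among them Gstt1, a glutathione transferase (1.01, SE 0.12), and Hmox1, which degrades haem (-1.15, SE 0.20). Of 19 glucocorticoid and fasting responsive genes 3 were higher and 0 lower, and Ddit4, an inhibitor of mTOR signalling, was higher by 1.07 (SE 0.16) and above Old ND by 0.71 (adjusted p = 0.0193). Fkbp5, a cochaperone of the glucocorticoid receptor that the hormone induces, was higher by 0.60 (SE 0.11). Of 22 autophagy and lysosome genes 3 were higher and 2 lower, with the lysosomal galactosidase Gla at 8.28 to 8.38 in Old CR and 7.03 to 7.59 in Young ND. Gla was higher by 0.97 (SE 0.12), and it exceeded Old ND by 0.66 (adjusted p = 0.00466). Of 17 clock genes 1 was higher and 2 lower: Arntl, a core activator, was lower by 1.30 (SE 0.33) and its partner Clock by 0.43 (SE 0.08), and Tef, an output factor, was higher by 0.35 (SE 0.09). The time of day of collection is not given in the sources used here. Of 27 immediate early genes, which respond to tissue handling, 2 were higher and 1 lower, with a median of 0.08.

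Genes of cell division gave 3 higher and 0 lower of 27 (11.1% higher, beside 7.11% of all genes). Among them were Pcna, the clamp of DNA polymerase (0.44, SE 0.11), and Rrm1, which makes deoxynucleotides (0.40, SE 0.08). The proliferation marker Mki67 was dim in both groups (5.00 and 5.16) and gave -0.17 with a 95% interval of -0.34 to 0.01. Among 16 cell cycle inhibitors and p53 targets 2 were higher and 2 lower (12.5% each). The senescence markers Cdkn2a, dim in both groups (5.16 and 5.21), and Cdkn1a (12.19 and 12.12) did not pass, with intervals of -0.34 to 0.25 and -0.07 to 0.22. Zmat3, a p53 target, was lower by 0.90 (SE 0.15), and Cdkn2b, the neighbour of Cdkn2a, was higher by 0.64 (SE 0.15).

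**Figure D4:**
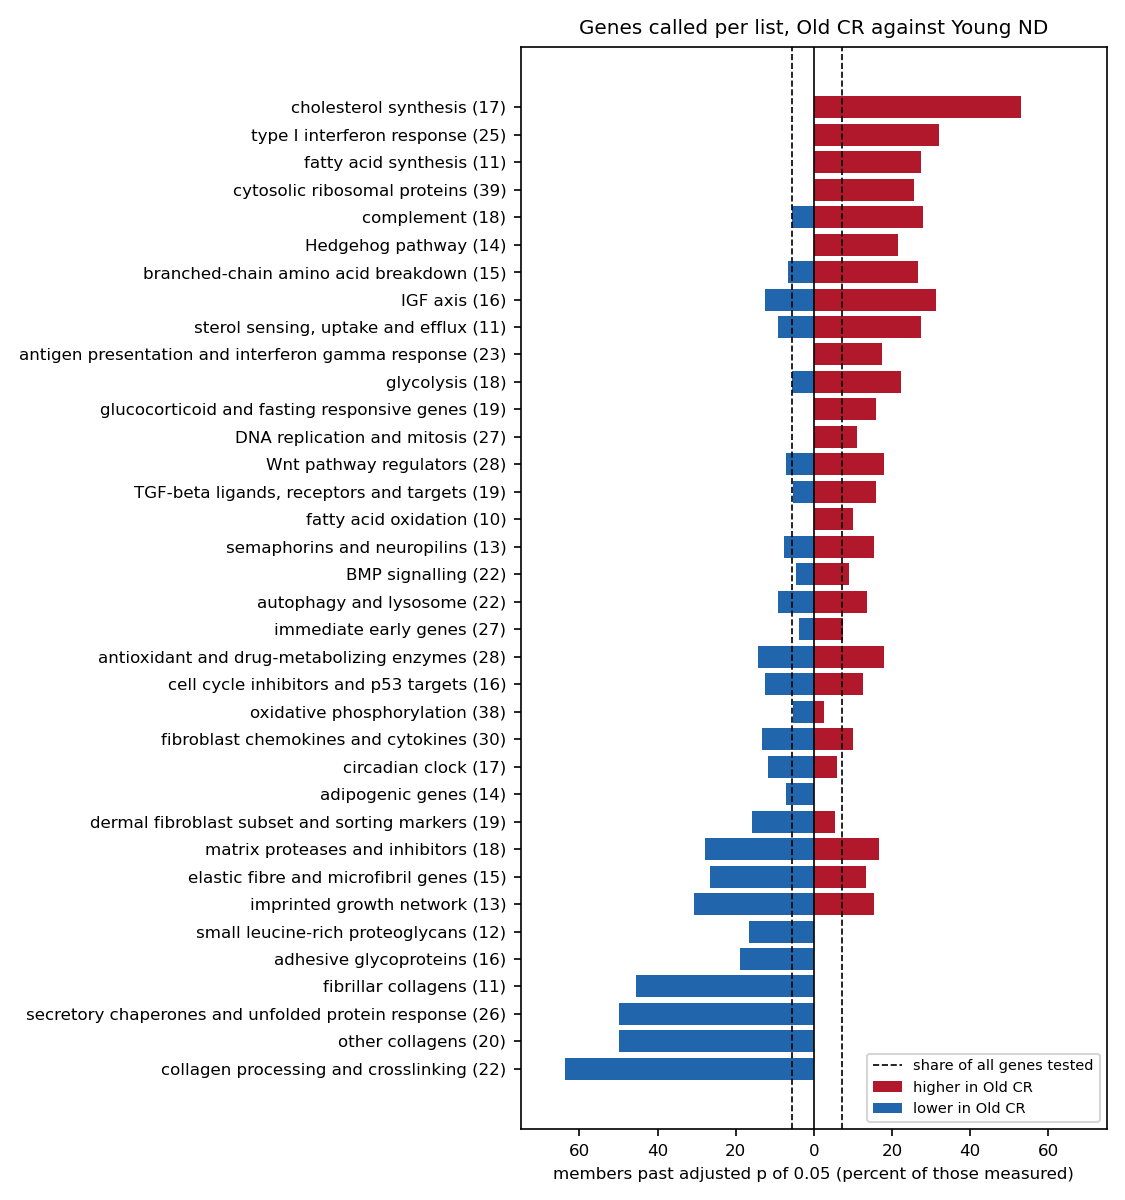
Share of the measured members of 36 gene lists (number measured in parentheses) that were higher (red, to the right) or lower (blue, to the left) in Old CR than in Young ND, in percent. The dashed lines mark 7.11% higher and 5.56% lower over all genes, and the collagen, collagen processing and secretory chaperone lists extend furthest to the left and cholesterol synthesis furthest to the right.

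Several genes stood higher in Old CR than in either normal-diet group. Besides Fdps, Igfbp3 and Lgr5 these included Kcnj8, Npr1, Prdm8, Sectm1a and Tgm1, taken by the smaller of their differences from Young ND and Old ND. All were picked for passing in both comparisons, which share the Old CR arrays. A chance deviation of Old CR moves both differences the same way and favours this pattern. The differences and adjusted p given for these genes are the values that picked them, and the pattern was not tested separately. Kcnj8, a potassium channel subunit, read 7.85, 8.03, 8.06, 8.22 and 7.88 in Old CR and 5.09 to 6.30 in Young ND. It was higher by 2.32 (SE 0.27, 4.99-fold, adjusted p = 7.42e-06), and exceeded Old ND by 1.29 (adjusted p = 0.0156). Npr1, the receptor for atrial natriuretic peptide, was higher by 1.43 (SE 0.17), with 0.84 in the second run alone, and above Old ND by 1.08 (adjusted p = 0.00255). The transcription factor Prdm8 was higher by 1.97 (SE 0.32) and above Old ND by 1.59 (adjusted p = 0.0119), and the immune-related Sectm1a by 1.45 (SE 0.23) and 1.04 (adjusted p = 0.0193). Tgm1, a crosslinking transglutaminase best known from keratinocytes, read 6.52, 6.94, 7.09, 6.45 and 5.88 in Old CR, 5.28 to 5.57 in Young ND and 5.37 to 5.72 in Old ND. Both normal-diet groups lay together below every Old CR array, and Tgm1 was higher by 1.13 (SE 0.19), with 0.52 in the second run alone, and above Old ND by 1.04 (adjusted p = 0.00554).

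Lower than in both normal-diet groups, besides Tnmd, Col6a3, Dkk2 and Vcam1, were Cybrd1, Fscn1, Uck2 and Nrep. These genes were picked in the same way, so a chance deviation of the shared Old CR arrays favours this pattern too. Cybrd1, an iron reductase of the cell surface, read 6.19, 6.49, 6.15, 6.35 and 6.48 in Old CR and 8.07 to 9.42 in Young ND. It was lower by 2.28 (SE 0.23, adjusted p = 1.83e-06) and below Old ND by 1.04 (adjusted p = 0.0213). The run alone gave -2.67 in the first and -1.60 in the second. Fscn1, which bundles actin filaments, was lower by 1.76 (SE 0.35) and below Old ND by 1.58 (adjusted p = 0.0193). Uck2, a kinase of the pyrimidine salvage pathway, was lower by 1.5 (SE 0.33), or by 0.52 over the mean of its 5 probe sets. Nrep, a small neuronal protein, was lower by 1.17 (SE 0.34, adjusted p = 0.0257) and below Old ND by 1.74 (adjusted p = 0.00942), with -0.69 in the second run alone, and the call against Young ND was lost without Old CR replicate 3 (-1.11) and Young ND replicates 1 and 3 (-0.87 and -1.08).

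A further set was named because age and late diet gave opposite signs. Each gene passed in Old ND against Young ND and, with the opposite sign, in Old CR against Old ND. Such genes numbered 126, of which 106 did not pass in Old CR against Young ND. Both selecting comparisons hold the same Old ND arrays, so a chance deviation of Old ND moves their differences in opposite directions and favours this pattern. The opposite signs therefore cannot show a reversal, which was not tested. For the named genes the question is where Old CR stood against Young ND. Mgp, which inhibits calcification of soft tissue, read 7.35, 6.91, 7.18, 7.14 and 7.46 in Old CR, 6.93 to 8.06 in Young ND and 8.52 to 10.24 in Old ND. Old CR lay wholly below Old ND and overlapped Young ND, with a difference of -0.09 and a 95% interval of -0.61 to 0.44. Lrrc15, a membrane protein of activated fibroblasts, gave -0.03 with a wider interval of -1.02 to 0.97, its Old ND arrays spreading from 6.31 to 9.53. The water channel Aqp1 (0.50, interval -0.33 to 1.33), the IGF carrier Igfbp4 (-0.60, interval -1.53 to 0.33) and the neutrophil chemokine Cxcl2 (-0.50, interval -1.17 to 0.17) did not pass either. A p that missed the threshold does not place these 5 genes at the young level, and their intervals give the sizes of difference that the 5 arrays per group leave possible.

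C1qtnf3, a secreted relative of adiponectin, read 8.47, 8.35, 8.48, 9.19 and 8.55 in Old CR, 6.72 to 8.53 in Young ND and 5.50 to 7.14 in Old ND. It exceeded Old ND by 2.27 (adjusted p = 0.00161), and its difference from Young ND was 0.99 (adjusted p = 0.0581), or 1.01 (adjusted p = 0.0495) with the run as a block. Ddah1, an enzyme that degrades a natural brake on nitric oxide production, read 9.06 to 9.81 in Old CR, 8.56 to 8.99 in Young ND and 7.29 to 8.18 in Old ND. All 3 groups are separate, with Old CR the highest: it exceeded Young ND by 0.63 (SE 0.20, adjusted p = 0.0400) and Old ND by 1.72 (adjusted p = 0.000167). Cmah, which makes a sialic acid form, stood between the others, below Young ND by 0.89 (SE 0.27, adjusted p = 0.0302) and above Old ND by 1.80 (adjusted p = 0.00161). In the second run alone Cmah differed from Young ND by -1.36 and Ddah1 by 0.41. The difference of Ddah1 from Young ND lost its call without Old CR replicates 1, 2 and 4 (0.54, 0.60 and 0.59) and without Young ND replicates 1, 2, 4 and 5 (0.66, 0.64, 0.61 and 0.56). That of Cmah did so without Old CR replicates 1 and 5 (-0.85 and -0.69) and Young ND replicates 1, 2 and 3 (-0.86, -0.77 and -0.87), and that of C1qtnf3 passed without Young ND replicates 1 and 3 (1.16 and 1.22).

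Of the 54 genes named here that passed in Old CR against Old ND, 30 passed with any 1 of the 10 arrays of those groups left out, among them Fdps, Fdft1, Nsdhl, Stard4, Igfbp3, Lgr5, Kcnj8, Npr1, Prdm8, Tgm1, Dkk2, Nrep, Creld2, Ccn5, Rian, Mgp and Ddah1. The other 24 kept their sign and lost the call in at least 1 case. Ifit2 did so without Old CR replicate 4 (0.87), Ddit4 without Old CR replicates 3 and 4 (0.64 in both), and Mfap4 without Old CR replicate 3 or Old ND replicate 1 (-0.70 in both). Without Old ND replicate 1 and Old CR replicate 4 the call was lost for Vcam1, Sectm1a, Fscn1 and Col6a3, and also without Old CR replicate 1 for Vcam1 (-1.22 to -1.13), Old CR replicate 2 for Sectm1a (0.98 to 1.02) and Fscn1 (-1.54 to -1.40) and Old ND replicate 3 for Col6a3 (-1.02 to -0.90). Irf7 lost it without Old CR replicates 1 and 2 and Old ND replicates 2 and 3 (0.44 to 0.47), Manf without Old CR replicates 3 and 4 and Old ND replicates 1 and 3 (-0.58 to -0.51), and Slc43a3 without Old CR replicates 1, 2 and 4 and Old ND replicate 3 (0.72 to 0.96). For the matrix and fibroblast genes Aqp1 (-1.71 to -1.35), Col4a1 (-0.71 to -0.57) and Lrrc15 (-2.07 to -1.67) it was lost without Old CR replicates 2, 3 and 4 and Old ND replicates 1 and 3, and for Col4a4 (0.35 to 0.41) and Cybrd1 (-1.04 to -0.95) without Old CR replicates 1, 3 and 4 and the same Old ND replicates. Of the sterol genes, Idi1 lost it without Old CR replicates 2, 3 and 4 and Old ND replicates 2 and 5 (0.62 to 0.77), and Insig1 without Old CR replicates 1, 3 and 4 and Old ND replicates 2 and 3 (0.51 to 0.66). Calls lost without 7 or more of the 10 arrays included those of Sfrp1 (without Old CR replicates 1 to 4 and Old ND replicates 1 to 3, 0.79 to 1.07), Grem1 (Old CR replicates 2 to 5 and Old ND replicates 1, 3 and 4, 0.68 to 0.79), Ces2g (Old CR replicates 1 to 4 and Old ND replicates 2, 4 and 5, -0.96 to -0.74) and Herpud1 (Old CR replicates 1 to 4 and Old ND replicates 1, 3, 4 and 5, -0.49 to -0.40). Tnmd (-2.06 to -1.57) and Uck2 (-1.36 to -0.96) lost it without any 1 Old CR array and without Old ND replicates 1 to 3, and Adcyap1r1 without Old CR replicates 1 to 4 and any 1 Old ND array (0.81 to 0.96).

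**Figure D5:**
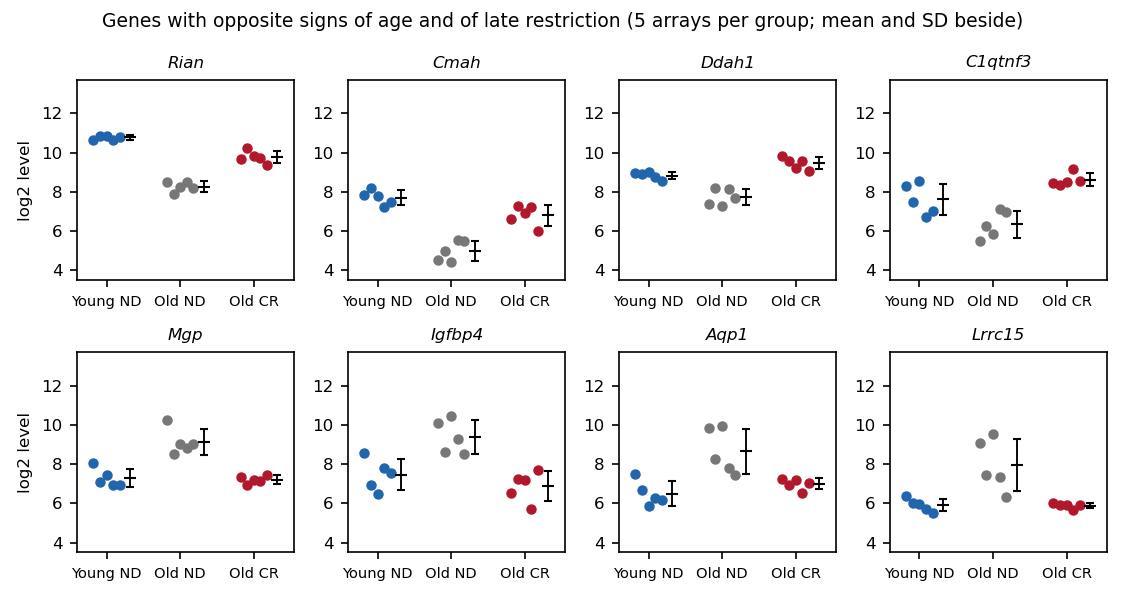
Log2 array levels (vertical axes) of 8 genes that differed between Old ND and Young ND and, with the opposite sign, between Old CR and Old ND, with 1 point per array and the mean and SD beside each group of 5 arrays (Young ND blue, Old ND grey, Old CR red). Old CR overlaps Young ND for Mgp, Igfbp4, Aqp1 and Lrrc15, lies above it for Ddah1 and lies below it for Rian.

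Old CR-ND mice, whose restriction was followed by normal diet, differed from Young ND in 1203 genes (7.04%), or 790 without Old CR-ND replicate 3, and from Old CR in 57 (0.333%), 36 higher and 21 lower in Old CR. The last count moved to 35, 28, 17, 29 and 110 without Old CR replicates 1 to 5 and to 24, 29 and 22 without Old CR-ND replicates 2, 4 and 5. Lgr5 was higher in Old CR than in Old CR-ND by 1.97 (adjusted p = 0.00071), as were Fdps and Igfbp3. Basp1, a membrane protein of growing nerve endings, was lower in Old CR than in Young ND by 1.03 (SE 0.23), or by 0.69 and 1.81 in the first and second run alone, and higher than in Old CR-ND by 1.06. Its Old CR arrays read 6.38 to 7.47 and overlapped the young ones, of which replicate 1 was at 7.22. The call of Basp1 against Old CR-ND was lost without Old CR replicates 1 to 4 and Old CR-ND replicates 1, 2, 3 and 5 (0.91 to 1.11), and that of Igfbp3 without Old CR replicates 2 and 3 and Old CR-ND replicates 4 and 5 (2.33 to 2.42). Ces2g, a carboxylesterase, and Cacna2d3, a calcium channel subunit, were lower in Old CR than in Old CR-ND by 1.49 (adjusted p = 0.00617) and 1.34 (adjusted p = 0.0138), the second lost without Old CR replicate 3 and Old CR-ND replicates 2 and 5 (-1.30 to -1.20). Against Young ND, Ces2g was lower in Old CR by 1.89 (SE 0.23) and Cacna2d3 by 2.08 (SE 0.24), or by 1.08 and 1.32 in the second run alone.

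Markers of other skin cells were read across the same 10 arrays. Of 13 keratinocyte genes 0 changed and their mean level was 6.35 to 6.85 per array in Old CR and 6.19 to 7.09 in Young ND, with Krt5, chosen after its values were seen, at 8.69 and 8.85. Of 12 macrophage and dendritic cell genes Cd68 was higher by 1.03 (SE 0.32) and Csf1r and Fcgr3 were lower by 0.97 (SE 0.10) and 0.71 (SE 0.11), Fcgr3 by 0.32 in the second run alone. The call of Cd68 was lost without Old CR replicates 1 to 4 (0.93, 1.02, 0.95 and 1.04) and without Young ND replicates 1, 4 and 5 (0.99, 1.00 and 0.83). The macrophage list read 4.75 to 4.85 per array in Old CR and 4.83 to 4.96 in Young ND, with 2 of its 12 members above the median gene level in each group. Of 11 endothelial genes Tek, a vascular receptor, was higher by 1.63 (SE 0.29), with 1.05 in the second run alone, of 8 pericyte genes Kcnj8, and of 7 melanocyte genes Mitf (1.25, SE 0.20, and 0.73 over the mean of its probe sets), and no other member of those lists changed. Of the lymphocyte (8), mast cell and granulocyte (9), Schwann cell (5), skeletal muscle (10), fat cell (5) and erythroid (3) genes 0 changed. Pecam1, which defines endothelial cells, and Ptprc, which defines white blood cells, lay below the median gene level in both groups, while Tek had means of 5.98 in Old CR and 4.35 in Young ND. Of the keratinocyte genes 10 of 13 in Old CR and 9 of 13 in Young ND lay above the median gene level, and of the erythroid genes 2 of 3 in each group. Of 12 dermal papilla genes 0 were higher and 3 lower, Sox18 among them (-0.61, SE 0.15), and the list read 5.17 to 5.40 per array in Old CR and 5.38 to 5.84 in Young ND. The part of such cells in the fibroblast results was not tested.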

How the data were processed

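All 20 arrays were Affymetrix mouse expression arrays hybridised with 8 µg of amplified cDNA, per the labels' protocols. The values are log2 intensities deposited by the authors and made by RMA with the affy package, per the submitters' processing notes (versions not given in the sources used here). RMA subtracts background and equalises the distributions of the arrays, so a shift common to most genes would be removed. No counts exist for arrays, and their number sets the precision.

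Of 45141 probe sets 28898 named 1 gene, 551 several and 15692 none, and 28689 matched RefSeq (GRCm38.p6) symbols, giving 17097 genes by their brightest probe set. One limma model (3.58.1, in R 4.3.3) over the 4 groups, with 16 residual degrees of freedom, gave every adjusted p. The code was tested on simulated data first. The p-values measure the spread between the arrays of a group, which the labels describe as separate samples.

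Named genes were the 12 largest called rises and falls with the higher mean above the median gene level (leaving out predicted genes, clones and the Ctla2 and Csprs families), 8 higher and 8 lower than both normal-diet groups, 10 with opposite signs of age and late diet, 6 differing from Old CR-ND, up to 4 called members per list (2 where none passed), and the sorting markers, Bcat1, the Tmem176 pair, Ctla2a, Col1a1, Col3a1, Pparg, Cdkn2a, Cdkn1a and Mki67. The comparison, the 36 pathway and 13 cell type lists and the rule were chosen with earlier results of these data known. Alternatives covered the probe set rule, filters, normalization, model, run and each array left out. Motif letters were searched in RefSeq promoters.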

Additional observations from a re-analysis of the deposited data

Results flagged for a closer look

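In 16 of the 322 gene and group combinations read in the Old CR and Young ND arrays, 1 array stood apart from the other 4 by more than 0.71 of the range of its group, Dixon's critical value for 5 samples. Chance alone gives about 1 in 20. Young ND replicate 1 accounted for 8 of the 16. It was the lowest young array for Flrt1, at 6.94 against 9.07 to 9.86, for Oxtr, at 7.85 against 9.42 to 9.96, for C4b, at 8.06 against 8.74 to 9.01, and for Tmem176b, at 7.57 against 8.03 to 8.11. It was the highest for Tnmd, at 10.86 against 9.68 to 9.78, for Col15a1, at 11.4 against at most 11.11, for Col4a1, at 11.66 against 11.2 to 11.32, and for Plat, at 7.19 against 6.85 to 6.94. Without it, Old CR minus Young ND was -4.03 for Flrt1, -2.83 for Oxtr, 2.31 for C4b, 2.62 for Tmem176b, -2.33 for Tnmd, -1.2 for Col15a1, -0.88 for Col4a1 and 1.87 for Plat. All 8 calls held, the largest of the 8 limma adjusted p being 0.00465 for Tnmd.

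Old CR replicate 5, which alone of its group belongs to the second run, read lowest in that group for Nsdhl, at 6.7 against 7.1 to 7.25, for Scarb1, at 4.65 against 4.95 to 5.04, and for Tgfbr3, at 11.01 against 11.4 to 11.5. Without it these genes differed by 0.87, 0.59 and 0.71, and each kept its call. Old CR replicate 4 was the highest for C1qtnf3, at 9.19 against 8.35 to 8.55, and for Cyp51, at 9.29 against 8.92 to 9.02. Without it C1qtnf3 differed by 0.84 (limma adjusted p = 0.153), which did not pass with it either, and Cyp51 by 0.73 (limma adjusted p = 0.00444). Young ND replicate 4 was the lowest for Manf, at 10.52 against 10.92 to 11.02, and Young ND replicate 5 for Rrm1, at 7.19 against 7.4 to 7.48. Without those arrays the differences were -1.02 and 0.35, and both calls held. Young ND replicate 3 was the lowest for Twist2, at 9.17 against 9.55 to 9.7, and without it Twist2 differed by -0.52 (limma adjusted p = 0.0174).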

How the results depend on the processing

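The 2167 changed genes became 576 (301 higher, 275 lower) within the second run, which holds 1 Old CR and 2 Young ND arrays, so that the lone array is assumed to vary like the other groups, and 1225 (671 higher, 554 lower) at an adjusted p under 0.01. With the run as a block, Old CR against Old ND rose from 409 to 711 genes and Old CR against Old CR-ND from 57 to 120. All other settings gave between 1674 (first run) and 2649 (every probe set) for Old CR against Young ND. Leaving out 1 array gave 1719 to 2171 genes (923 to 1259 higher, 779 to 931 lower, against 990 higher and 1166 lower with median centring), 230 to 284 at 2-fold or more, and for the other comparisons 1454 to 1847 (Old ND against Young ND), 201 to 498 (Old CR against Old ND), 790 to 1187 (Old CR-ND against Young ND) and 17 to 110 (Old CR against Old CR-ND). Of the 161 genes named, 139 passed in Old CR against Young ND, and wherever they could be measured each kept its sign under every setting. The first run alone kept 124 of the 139 calls and the second 95. Over the mean of probe sets 136 remained, without Tef (0.34, adjusted p = 0.0506), Sema3b (-0.34) and Ddah1 (0.51, adjusted p = 0.0688). Crabp1 (-1.51 and -1.32) and Twist2 (-0.43 and -0.36) did not pass with trended and robust moderation or with array weights. Median differences of the 49 lists moved by more than the spread between arrays for 8 lists in the first run alone, 24 in the second alone and 18 above the median gene level. Several medians near 0 changed sign. That of the insulin-like growth factor list turned from 0.08 to -0.02 without Young ND replicate 4 and within the first run, and that of complement from 0.05 to -0.01 without Old CR replicate 1. Within the second run those of chemokines and cytokines (-0.05 to 0.13), Wnt pathway regulators (-0.08 to 0.01) and autophagy and lysosome genes (-0.08 to 0.01) were among others that turned. The groups were made of different mice, so no paired analysis was made, and the labels give the groups no replicate numbers.

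Signal over background limits the dim genes: 120 of the 139 lay above the median gene level, and all 120 passed when only such genes were tested (1950 genes in all). Age and diet differ together between Old CR and Young ND and cannot be told apart by these 10 arrays. The runs were spread unequally over the groups, with 4 and 1 arrays for Old CR and 3 and 2 for Young ND. With the run as a block, 138 of the 139 calls remained.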

Other observations

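Semaphorins, guidance proteins first known from growing nerves, were read over 13 measured genes of their family and receptors, of which 2 were higher and 1 lower in Old CR than in Young ND, with a median difference of 0.10 (0.01 without Old CR replicate 1, and -0.02 and 0.16 within the first and second run). Sema3d was higher by 0.56 (SE 0.12, limma adjusted p = 0.00367) and above Old ND by 0.60 (adjusted p = 0.0135). Sema3b was lower by 0.64 (SE 0.13, limma adjusted p = 0.00232), and its difference over the mean of its probe sets was -0.34 (adjusted p = 0.188), which did not pass.

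Cpe, which trims peptide hormone precursors, differed from Young ND by -0.94 (limma adjusted p = 0.0845) and did not pass, although it did when the run was blocked (-1.02, adjusted p = 0.0415) and in a fit of these 2 groups alone (-0.94, adjusted p = 0.0119), while Old CR lay below Old ND by 2.10 (adjusted p = 0.00309).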
